A study of Mus musculus with 8 samples.

Results

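Antigen presentation genes were followed in mouse liver from late gestation to adulthood. The set held 10 of the 22059 genes in the files: the MHC class II genes H2-Aa, H2-Ab1, H2-Eb1, Cd74, Ciita and H2-DMa, and the class I genes H2-K1, H2-D1, B2m and Tap1. They were taken by name, and all 10 were found in each of the 8 libraries and passed the filter on low counts. RNA was sequenced from whole liver of untreated FVB mice at embryonic day 18 (E18), postnatal day 14 (P14), postnatal day 28 (P28) and in adults of 3 months, with 2 samples per stage. The FVB/NJ mice were wild type and no group carried a transgene. The labels give no sex, litter or batch. The study calls its samples biological duplicates, but nothing in the labels ties them to separate animals, so p-values measure only the spread between these samples.

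MHC molecules display peptides to T cells. Class I molecules, a heavy chain such as H2-K1 or H2-D1 paired with beta-2-microglobulin (B2m), are made by nearly all nucleated cells and are filled with proteasome products that the transporter of Tap1 and Tap2 carries into the endoplasmic reticulum. Class II molecules, an alpha and a beta chain such as H2-Aa and H2-Ab1, are made mainly by dendritic cells, B cells and macrophages, where the invariant chain Cd74 guards the peptide groove and H2-DM exchanges its remnant for antigenic peptide. Ciita switches on class II genes, Nlrc5 switches on class I genes, and interferon-gamma induces both. The fetal liver is a site of blood formation, whereas the liver after weaning holds resident Kupffer cells and a smaller leukocyte population.

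In the GENCODE annotation of build GRCm38, 7 of the 10 genes lie on chromosome 17 between 33996017 and 35267499, a span of 1.27 Mb that holds the MHC. B2m lies on chromosome 2 and Ciita on chromosome 16. These coordinates are not of the mm9 build that the labels name for the deposited counts.

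Class I and class II genes share a promoter module that Ciita and Nlrc5 use, and it is shown as background. Its part in the changes of these genes was not tested. RefSeq promoter windows of GRCm38.p6, from 250 bases before to 50 bases after the start site, were at hand for 7 members. They come from the C57BL/6J reference, not from FVB. The capitals mark TGACG, a core of the X2 box, and ATTGG, a core of the Y box.
H2-Aa: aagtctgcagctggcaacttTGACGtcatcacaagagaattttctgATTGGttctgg
H2-K1: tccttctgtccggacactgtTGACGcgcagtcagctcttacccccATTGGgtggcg
H2-D1: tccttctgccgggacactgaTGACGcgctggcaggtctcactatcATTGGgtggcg
B2m: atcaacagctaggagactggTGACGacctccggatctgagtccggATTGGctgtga
The H2-Aa stretch is chr17:34287861-34287917 on the minus strand and that of H2-K1 is chr17:34000353-34000408 on the minus strand. The H2-D1 stretch is chr17:35262973-35263028 on the plus strand and that of B2m is chr2:122147589-122147644 on the plus strand. Between the cores lie 21 bases in H2-Aa and 20 bases in the other 3 genes. TGACG followed by ATTGG on one strand with 15 to 25 bases between was present in 143 of 32851 windows, or 0.435%, and in 4 of the 7 members. GATTGG, a longer Y box core that overlaps ATTGG, was present on either strand in all 7 members and in 16.1% of all windows. In H2-K1 and H2-D1 the base before the marked ATTGG is C, so their GATTGG lies elsewhere in the window or on the other strand. The motifs were chosen with these sequences in view, and a match is a description only.

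H2-K1 and H2-D1 also share an upstream enhancer stretch. Its capitals are on GGGATTCCC, an NF-kappaB site, and on the reverse complement of GAANNGAAA, a core of an interferon response element.
H2-K1: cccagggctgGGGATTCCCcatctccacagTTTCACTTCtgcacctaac
H2-D1: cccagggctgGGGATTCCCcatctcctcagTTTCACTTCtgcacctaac
The stretches are chr17:34000419-34000467 on the minus strand and chr17:35262914-35262962 on the plus strand, and 48 of 49 bases are identical. On either strand, GGGATTCCC was found in 0.353% of all windows and GAANNGAAA in 7.52%, and among the 7 members both were found in H2-K1 and H2-D1 only. Tap1 and the immunoproteasome gene Psmb9 are read in opposite directions from start sites 226 bases apart.

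Libraries held between 68154675 and 106055723 reads on genes. The 6 hepatocyte markers had sums from 42350 to 206100 counts per 1000000 (CPM), and Alb made up most of them. At E18 Alb averaged 38360 CPM, whereas Tat and G6pc averaged 0.481 and 0.214 CPM. Erythroid markers summed to 5285 and 7066 CPM at E18 and to between 67.0 and 82.4 in all later libraries. CPM here are scaled by TMM, a method that sets most genes to no change between libraries. TMM factors were 1.539 and 1.598 at E18 and between 0.847 and 0.888 later, so the choice of scaling bears on every comparison with E18. In whole tissue, fewer cells of a type and less RNA per cell cannot be told apart. Replicate 1 of P28 stood apart from replicate 2 in its class II and interferon-induced genes, and results that rest on it are given with and without it.

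**Figure D1:**
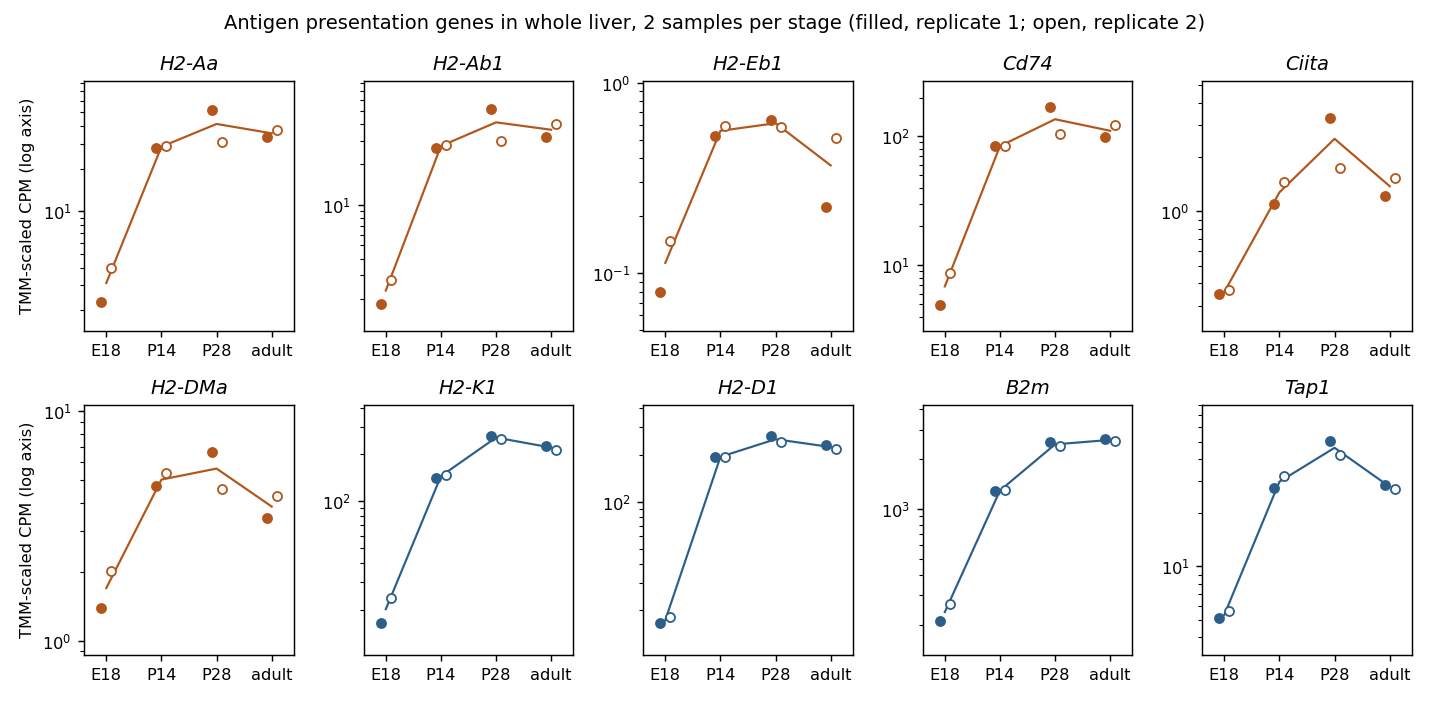
TMM-scaled CPM of the 10 genes (y, log axis) by stage (x), with filled points for replicate 1, open points for replicate 2 and a line through the stage means. Class II genes are orange and class I genes blue, all 10 are lowest in both E18 samples, and the 2 P28 points lie apart in 5 of the class II genes.

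All 10 genes rose between E18 and P14, and 9 of them rose over 3-fold. A gene is said to have risen or fallen at a Benjamini-Hochberg false discovery rate (FDR) below 0.1 in edgeR's quasi-likelihood test, and the 3-fold limit is stated separately. Among the 17081 genes tested, 13.8% rose over 3-fold in this interval and 15.4% fell over 3-fold. Without the fold limit, 38.2% rose and 39.3% fell. The median log2 fold change was 2.66 for the 10 genes and -0.03 for all genes. Both E18 samples were below both P14 samples for each of the 10 genes. The share of all genes that separated in this way was not counted. From E18 to adult, again 9 of 10 rose over 3-fold and all 10 rose, against 16.8% and 39.5% of all genes, while 23.8% of all genes fell over 3-fold and 43.8% fell at any fold. With library size as the only scaling, which lowered the median of all genes to -0.90 from E18 to P14 and to -0.95 from E18 to adult, 6 of the 10 rose over 3-fold in each comparison.

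Cd74, H2-Ab1, H2-D1 and H2-Aa had the largest fitted folds of the 10 from E18 to P14. H2-Aa, the alpha chain of the I-A molecule, measured 2.28 and 3.96 CPM in E18 livers, 28.0 and 29.0 in P14 livers, 51.8 and 30.7 in P28 livers and 33.2 and 37.7 in adult livers. It was 9.17-fold higher at P14 than at E18 (log2 fold change 3.20, SE 0.29, edgeR adjusted p = 1e-05). Its beta chain partner H2-Ab1 measured 1.85 and 2.78 CPM in E18 livers, 26.7 and 28.1 in P14 livers, 52.1 and 30.1 in P28 livers and 32.3 and 40.2 in adult livers. H2-Ab1 was 11.9-fold higher at P14 than at E18 (log2 3.57, SE 0.29, edgeR adjusted p = 4e-06). Per kilobase the 2 chains lay close together in every library after birth, with H2-Aa at 1.05 to 1.17 times the RPKM (reads per kilobase, scaled to library size) of H2-Ab1. At E18 the ratio was 1.38 and 1.59.

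Cd74, the invariant chain, had the highest CPM of the class II genes. It measured 4.92 and 8.77 CPM in E18 livers, 83.5 and 84.5 in P14 livers, 168.0 and 103.6 in P28 livers and 98.1 and 122.8 in adult livers. Its rise of 12.3-fold from E18 to P14 (log2 3.62, SE 0.31, edgeR adjusted p = 5.8e-06) was the largest of the 10 as fitted, although the standard errors of Cd74, H2-Ab1 and H2-D1 overlap. By adulthood Cd74 stood 16.2-fold above E18 (log2 4.01, SE 0.31, edgeR adjusted p = 2.2e-06). Relative to H2-Aa in the same library, Cd74 RPKM went from 1.63 and 1.68 at E18 to between 2.20 and 2.55 later.

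Ciita, the class II transactivator, was scarce at every stage. It measured 0.346 and 0.368 CPM in E18 livers from 48 and 45 reads, 1.1 and 1.45 in P14 livers, 3.30 and 1.75 in P28 livers and 1.22 and 1.54 in adult livers. It rose 3.56-fold from E18 to P14 (log2 1.83, SE 0.34, edgeR adjusted p = 0.00093), against 9.17-fold for H2-Aa and 2.97-fold for H2-DMa. The difference in fold between Ciita and other class II genes was not tested.

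H2-DMa, the alpha chain of the peptide editor H2-DM, had the smallest change of the 10 from E18, both to P14 and to adult. It measured 1.39 and 2.01 CPM in E18 livers, 4.71 and 5.37 in P14 livers, 6.68 and 4.59 in P28 livers and 3.42 and 4.28 in adult livers. Its 2.97-fold rise from E18 to P14 (log2 1.57, SE 0.24, edgeR adjusted p = 0.00031) stayed just under the 3-fold limit, and adults stood 2.27-fold above E18 (edgeR adjusted p = 0.0016). With library size alone as scaling the rise to adult was 0.34 on the log2 scale (edgeR adjusted p = 0.21), so that call depends on the scaling. Within a library, where scaling cancels, H2-DMa was 0.836 and 0.696 times the RPKM of H2-Aa at E18 and 0.141 and 0.155 times in adults. The editor and the chain it serves therefore changed unequally.

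H2-Eb1, the beta chain of the I-E molecule, was near the limit of detection. Its libraries held 11 to 53 reads, which gave 0.0793 and 0.147 CPM in E18 livers, 0.524 and 0.595 in P14 livers, 0.638 and 0.588 in P28 livers and 0.223 and 0.512 in adult livers. It rose 4.94-fold from E18 to P14 (log2 2.31, SE 0.44, edgeR adjusted p = 0.0012). H2-Eb1 amounted to between 0.495% and 3.78% of the RPKM of H2-Ab1. From E18 to adult it rose 3.30-fold (edgeR adjusted p = 0.0077), but the adult samples differed widely, and without adult replicate 2 the log2 fold change was 0.98 (edgeR adjusted p = 0.13). With library size alone it was 0.89 (edgeR adjusted p = 0.11). FVB mice carry the q haplotype of the MHC and the reference carries the b haplotype. How many reads of polymorphic genes were lost or moved to a near copy in alignment was not tested.

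The class I chains H2-K1, H2-D1 and B2m had higher CPM at E18 than any of the 6 class II genes. H2-K1, a classical heavy chain, measured 16.4 and 23.9 CPM in E18 livers, 141.7 and 148.1 in P14 livers, 261.2 and 252.6 in P28 livers and 227.8 and 214.7 in adult livers. H2-K1 rose 7.19-fold from E18 to P14 (log2 2.85, SE 0.17, edgeR adjusted p = 5.1e-07). H2-D1, the heavy chain at the other end of the complex, measured 16.6 and 18.1 CPM in E18 livers, 194.8 and 193.7 in P14 livers, 262.6 and 241.8 in P28 livers and 230.7 and 218.5 in adult livers. H2-D1 rose 11.2-fold from E18 to P14 (log2 3.49, SE 0.10, edgeR adjusted p = 1.3e-08). The ratio of H2-D1 to H2-K1 RPKM within a library was 0.960 and 0.717 at E18, 1.30 and 1.24 at P14, and between 0.907 and 0.965 at P28 and in adults. By RPKM, P14 was thus the only stage of the 4 where H2-D1 exceeded H2-K1 in both samples. By CPM H2-D1 was also slightly above H2-K1 in both adult samples.

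Heavy chain genes are near-identical, and their counts carry that uncertainty. H2-Q6 and H2-Q8, H2-Q7 and H2-Q9, and H2-T22 and H2-T9 had equal counts in 8 of 8 libraries, so these copies share their reads. H2-L followed H2-D1 closely, with a rise of 10.4-fold from E18 to P14 and 12.0-fold from E18 to adult. H2-L was not found in the GENCODE annotation of GRCm38, and whether its reads are separate from those of H2-D1 was not tested.

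B2m, the light chain of every class I molecule, was the most abundant of the 10 genes per kilobase. Its values were 209.9 and 266.0 CPM in E18 livers, 1280.0 and 1295.0 in P14 livers, 2512 and 2377 in P28 livers and 2650.0 and 2551 in adult livers. By RPKM it ranked 101 and 88 among all genes in E18 livers, 38 and 37 in P14 livers, 20 and 21 in P28 livers and 24 and 23 in adult livers. B2m rose 5.41-fold from E18 to P14 (log2 2.44, SE 0.14, edgeR adjusted p = 4.4e-07) and 10.9-fold from E18 to adult (edgeR adjusted p = 4e-08). It rose later than the heavy chains: 70.6% of its log2 change from E18 to adult was present at P14, against 82.3% for H2-K1 and 94.3% for H2-D1. Set against the summed RPKM of H2-K1 and H2-D1 in the same library, B2m went from 12.6 and 12.4 at E18 to 7.52 and 7.48 in P14 livers, 9.45 and 9.46 in P28 livers and 11.4 and 11.6 in adult livers.

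Tap1, a subunit of the peptide transporter, measured 5.11 and 5.61 CPM in E18 livers, 27.5 and 32.1 in P14 livers, 50.3 and 42.1 in P28 livers and 28.7 and 27.2 in adult livers. It rose 5.56-fold from E18 to P14 (log2 2.48, SE 0.13, edgeR adjusted p = 2.4e-07). Of the 4 class I genes only Tap1 passed the test for a fall from P28 to adult, where it fell by 0.73 on the log2 scale (SE 0.12, edgeR adjusted p = 0.0054), and the adult values overlapped those of P14.

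Levels between genes were compared per kilobase. In adult liver mean RPKM was 2423 ± 14.8 (SD, n = 2) for B2m, 107.5 ± 2.25 for H2-K1, 103.4 ± 1.82 for H2-D1 and 62.5 ± 11.2 for Cd74. H2-Aa at 26.5 ± 2.93 and H2-Ab1 at 24.3 ± 4.26 overlapped. Tap1 stood at 7.56 ± 0.128 and H2-DMa at 3.95 ± 0.703. Ciita at 0.194 ± 0.0354 and H2-Eb1 at 0.177 ± 0.102 overlapped at the foot of the order. Class II chains, as the sum of H2-Aa and H2-Ab1, amounted to 0.185 to 0.297 times the sum of H2-K1 and H2-D1 in all 8 libraries.

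**Figure D2:**
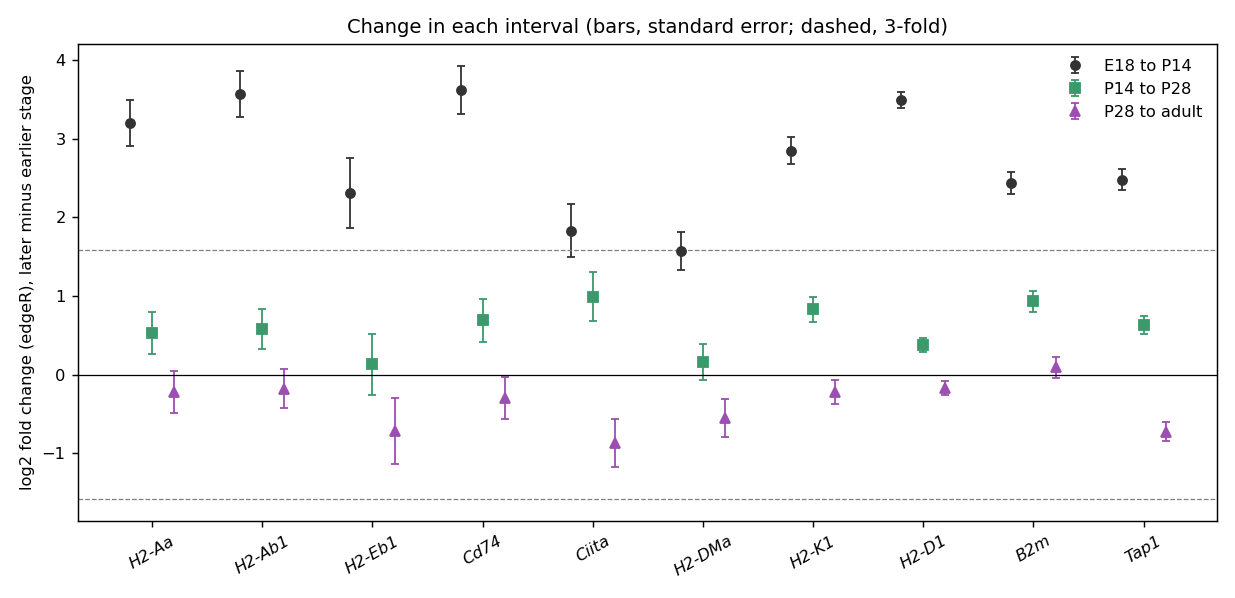
Fitted log2 fold change of each gene (y) in 3 successive intervals, with standard errors as bars and dashed lines at 3-fold. Changes from E18 to P14 run from 1.57 to 3.62, those from P14 to P28 from 0.13 to 0.99, and those from P28 to adult from -0.87 to 0.09.

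From P14 to P28 none of the 10 genes changed over 3-fold, against 3.61% of all genes that rose over 3-fold and 5.98% that fell over 3-fold. At any fold 7 of the 10 rose, against 25.2% of all genes, and none fell, against 28.6%. The median of the 10 was 0.61 on the log2 scale and that of all genes was -0.05. B2m rose 1.90-fold (log2 0.93, SE 0.13, edgeR adjusted p = 0.00063), H2-K1 1.77-fold, Tap1 1.55-fold and H2-D1 1.30-fold. These 4 class I genes also rose without P28 replicate 1, by 0.88, 0.80, 0.49 and 0.31 on the log2 scale.

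For class II the calls from P14 to P28 did not hold when single samples were left out. Ciita rose 1.99-fold (edgeR adjusted p = 0.027), Cd74 1.62-fold (edgeR adjusted p = 0.066) and H2-Ab1 1.5-fold (edgeR adjusted p = 0.088). Without P28 replicate 1 their log2 fold changes were 0.45, 0.30 and 0.13 (edgeR adjusted p = 0.27, 0.44 and 0.68), so that 4 of the 10 genes rose and all 4 were of class I. Without P14 replicate 1 Ciita, Cd74 and H2-Ab1 did not pass either (edgeR adjusted p = 0.14, 0.18 and 0.24), and without P14 replicate 2 Cd74 and H2-Ab1 did not (0.18 and 0.19). Without P28 replicate 2 8 of the 10 rose, H2-Aa among them (log2 0.86, edgeR adjusted p = 0.029). H2-Aa was 1.45-fold higher at P28 (edgeR adjusted p = 0.13), H2-DMa 1.12-fold (edgeR adjusted p = 0.60) and H2-Eb1 1.1-fold (edgeR adjusted p = 0.80), and none of these passed the test. A fit without a sample leaves 1 sample at that stage, whose spread is taken to be that of the other stages.

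From P28 to adult none of the 10 changed over 3-fold either, against 0.767% of all genes that rose over 3-fold and 2.24% that fell over 3-fold. At any fold, 7.94% of all genes rose and 13.2% fell, and 2 of the 10 fell: Tap1, as above, and Ciita by 0.87 on the log2 scale (SE 0.31, edgeR adjusted p = 0.099). The median of the 10 was -0.26 and that of all genes was 0.00. Without P28 replicate 1 Ciita had a log2 fold change of -0.34 (edgeR adjusted p = 0.59), while Tap1 still fell, by 0.59 (edgeR adjusted p = 0.044). Adult values of H2-Aa and H2-Ab1 lay between those of the 2 P28 samples. Successive intervals share the samples of the stage between them, so their values are not independent.

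**Figure D3:**
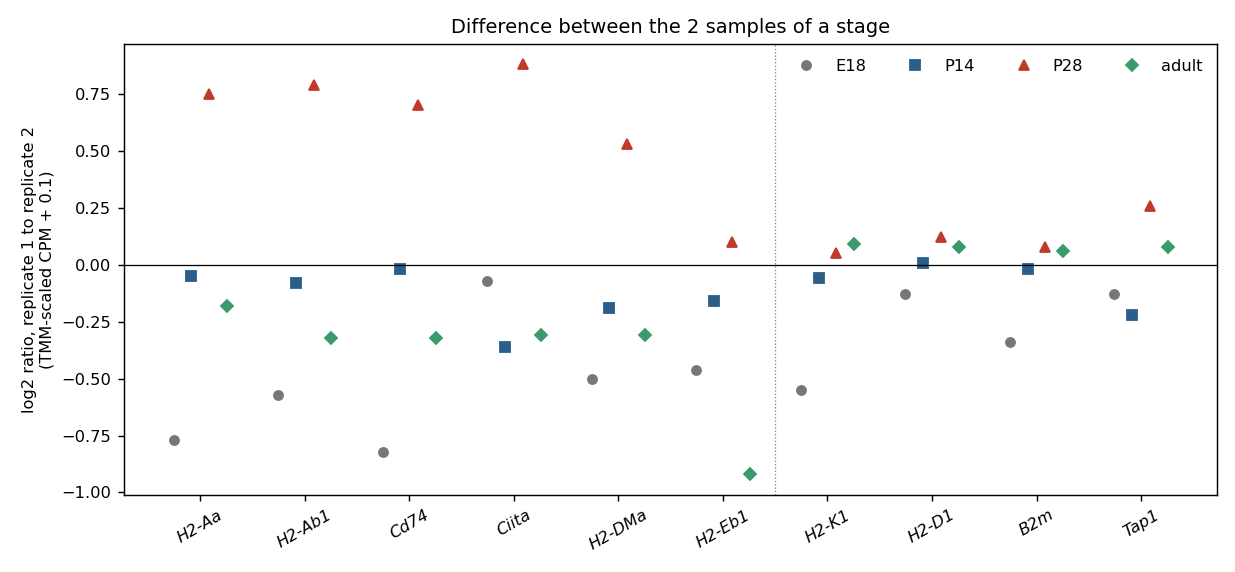
Log2 ratio of replicate 1 to replicate 2 in TMM-scaled CPM (y, 0.1 added) for each gene (x) at each stage. At P28 the 5 class II genes left of H2-Eb1 lie between 0.53 and 0.88, whereas the 4 class I genes right of the dotted line lie between 0.05 and 0.26.

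The 2 P28 samples differed in class II and much less in class I. Replicate 1 exceeded replicate 2 by 1.84-fold for Ciita, 1.73-fold for H2-Ab1, 1.68-fold for H2-Aa, 1.62-fold for Cd74 and 1.45-fold for H2-DMa. The ratio was 1.03 for H2-K1, 1.06 for B2m, 1.07 for H2-Eb1, 1.09 for H2-D1 and 1.19 for Tap1. The chemokine gene Cxcl9 differed by 3.17-fold, and Irgm2 and Igtp, GTPases induced by interferon-gamma, by 2.00-fold and 1.79-fold. Of 24 interferon-induced genes 21 were higher in replicate 1, with a median log2 ratio of 0.33 against 0.02 for all genes. All 10 macrophage markers and all 4 general leukocyte markers were also higher there, with medians of 0.26 and 0.35. So were all 5 neutrophil markers, with a median of 0.55, and 7 of 9 costimulatory genes, with a median of 0.24, while 4 of 9 dendritic cell markers and 3 of 7 B-cell markers were higher. The part of these in the class II difference was not tested.

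E18 also held a split, in the opposite direction. Replicate 2 exceeded replicate 1 in all 10 genes, most in Cd74 and H2-Aa, where replicate 1 stood at 0.566 and 0.586 times replicate 2, and least in Ciita at 0.953 times. Of all genes tested, 99.2% had a higher ratio of replicate 1 to replicate 2 than Cd74, and 59.9% a higher one than Ciita. All 10 macrophage markers, all 4 leukocyte markers and all 5 erythroid markers were higher in replicate 2 as well. All 5 endothelial markers were higher in replicate 1 instead, with a median log2 ratio of 0.13. The part of these in the result was not tested. Leaving out either E18 sample changed no call of the 10 genes against E18 at the FDR limit. The 3-fold limit was crossed in both directions. Without E18 replicate 1 the log2 fold change of H2-Eb1 from E18 to adult was 1.33, under 3-fold. Without E18 replicate 2 that of H2-DMa from E18 to P14 was 1.87, over 3-fold.

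**Figure D4:**
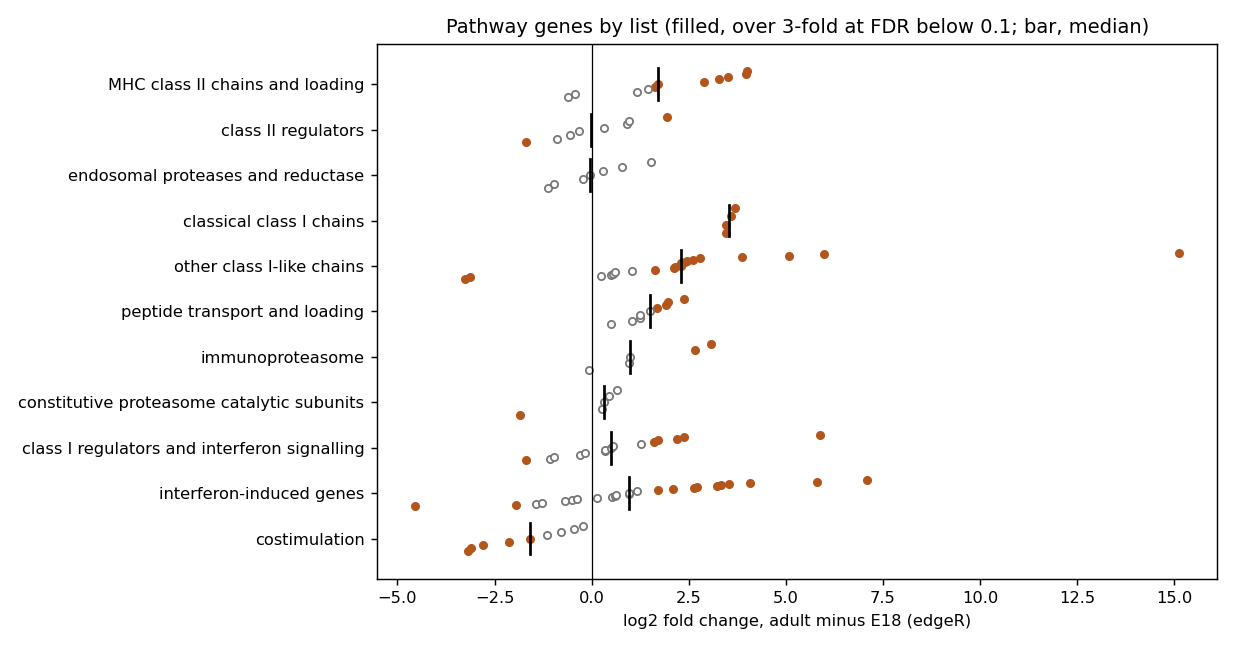
Fitted log2 fold change from E18 to adult (x) of the tested genes of each pathway list (y), filled where the gene rose or fell over 3-fold and open otherwise, with a bar at the median of the list. Classical class I chains lie entirely to the right, and costimulation genes lie to the left of 0.

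The other genes of each pathway were taken from lists, which include the 10. Of 11 class II chains and loading factors, 7 rose over 3-fold from E18 to adult and none fell, with a median of 1.72, against 16.8% and 23.8% of all genes and a median of -0.11. Among them, H2-DMb1, a beta chain of the editor, rose 3.10-fold, and H2-Ob, a subunit of the H2-DM inhibitor H2-O, rose 7.42-fold. Its partner H2-Oa was not among the 7 and measured 0.562 and 0.605 CPM at E18 and 0.378 and 0.482 in adults. H2-Ea-ps, the I-E alpha pseudogene, rose 9.76-fold from 7 and 10 reads at E18. Of the 8 class II regulators, Ciita rose over 3-fold and Nfya, a subunit of the factor that binds the Y box, fell by 1.69 on the log2 scale, so 1 of 8 went each way, shares below those of all genes. None of the 7 endosomal proteases and reductases rose or fell over 3-fold.

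In class I, all 4 genes listed as classical chains, H2-K1, H2-D1, H2-L and B2m, rose over 3-fold, though H2-L may not be a separate observation from H2-D1. Of the 25 other class I-like chains 21 were tested, 14 rose over 3-fold and 2 fell, against 16.8% and 23.8% of all genes. H2-Q6 and H2-Q8, both among the 14, have the same counts, and H2-Q7 lies within 10% of them, so these are not separate observations. With library size alone 7 rose. Azgp1, a secreted class I-like protein, had 7 and 11 reads at E18 and 147780 and 166920 in adults. Cd1d1, which presents lipids to NKT cells, measured 2.33 and 2.96 CPM at E18 and 174.7 and 161.8 in adults. H2-Q10, a secreted class I chain of the liver that was singled out after its values were seen, rose 14.5-fold to 616.4 ± 48.3 CPM (SD, n = 2). H2-T24 went the other way, from 41.8 and 47.0 CPM at E18 to 4.85 and 4.43 in adults, and H2-T3 fell from 135 and 55 reads to 5 and 5.

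Of 9 genes of peptide transport and loading, 4 rose over 3-fold, against 16.8% of all genes: Tap1, Tap2 (3.79-fold), Tapbpl and Erap1, the last a trimming protease. With library size alone none of the 9 rose over 3-fold. Tap1 was 0.294 and 0.332 times the RPKM of Tap2 at E18, 0.570 and 0.557 times at P28, and 0.455 and 0.407 times in adults. Of 5 immunoproteasome genes, Psmb8 (6.27-fold) and Psmb9 (8.41-fold) rose over 3-fold, against the same 16.8%. The constitutive catalytic subunits did not, and of that list of 5 only Psme3, an activator subunit, changed over 3-fold and fell by 1.84 on the log2 scale. Psmb9 replaces Psmb6 in the immunoproteasome, and its RPKM was 0.125 and 0.152 times that of Psmb6 at E18, 0.952 and 1.17 times in P14 livers, 1.21 and 0.913 times in P28 livers and 0.623 and 0.887 times in adult livers. The RPKM of Psmb10 was 0.243 and 0.217 times that of Psmb7 at E18 and 0.649 and 0.756 times in P14 livers. It was 0.474 and 0.385 times in P28 livers and 0.315 and 0.358 times in adult livers. Psmb10 itself rose 2.0-fold from E18 to adult, under the 3-fold limit.

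Nlrc5, the class I transactivator, had the largest change of the 15 regulators and interferon signalling genes. It measured 0.216 and 0.204 CPM in E18 livers from 30 and 25 reads, 8.12 and 9.67 in P14 livers, 21.5 and 13.7 in P28 livers and 11.3 and 13.8 in adult livers. The rise was 42.0-fold to P14 and 59.3-fold to adult (log2 5.89, SE 0.28, edgeR adjusted p = 9.2e-08), whereas Ciita rose 3.86-fold to adult (log2 1.95, SE 0.34). In this list 5 genes rose over 3-fold, Nlrc5, Irf1, Irf2, Stat2 and Socs3, and Jak2 fell, against 16.8% and 23.8% of all genes. With library size alone 1 rose and 3 fell. Socs3 lost its call under 5 alternatives, among them those without E18 replicate 2 or adult replicate 1.

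Interferon-induced genes moved in mixed directions against E18. From E18 to adult 10 of 24 rose over 3-fold and 2 fell, against 16.8% and 23.8% of all genes, led by Iigp1, an interferon-gamma inducible GTPase, at 136.0-fold, and Cxcl9 at 55.7-fold from 6 and 12 reads. The antiviral genes Rsad2 and Ifit2 were those that fell, and Rsad2 went from 74.0 and 105.0 CPM at E18 to 3.73 and 3.98 in adults. From P14 to P28 8 of 24 rose over 3-fold and none fell, with a median of 0.89, against 3.61% of all genes that rose over 3-fold. From P28 to adult 9 fell over 3-fold and none rose, with a median of -1.41, against 2.24% of all genes that fell over 3-fold. Tgtp1 and Tgtp2, both among the 9, had equal mean CPM at P14 (0.786) and in adults (0.119). They may not be separate observations. At the FDR limit 18 rose and none fell from P14 to P28, against 25.2% and 28.6% of all genes. Without P28 replicate 1 fewer of them rose and some fell, with a median of 0.73. Without that sample 7 rose over 3-fold from P14 to P28 and 7 fell over 3-fold from P28 to adult. Isg15 measured 2.44 and 2.58 CPM in P14 livers, 9.47 and 9.01 in P28 livers and 3.99 and 3.25 in adult livers, so both P28 samples lay above all others for this gene.

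Of 12 costimulatory genes 9 were tested, 5 fell over 3-fold from E18 to adult and none rose, with a median of -1.59, against 23.8% of all genes that fell over 3-fold. From E18 to P14 2 of the 9 rose and 5 fell at the FDR limit, against 38.2% and 39.3% of all genes. Cd83, a marker of mature dendritic cells, rose by 1.42 on the log2 scale in that interval (edgeR adjusted p = 0.00026) and did not pass the test from E18 to adult (-0.23, edgeR adjusted p = 0.36). Cd86, a ligand of CD28 on antigen-presenting cells, measured 6.65 and 9.01 CPM in E18 livers, 4.81 and 4.87 in P14 livers, 3.39 and 3.11 in P28 livers and 1.74 and 1.81 in adult livers, a fall of 4.41-fold. Cd40, which receives help from T cells, fell by 3.10 on the log2 scale. Icosl, Cd48 and Tnfsf9 were the others that fell.

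**Figure D5:**
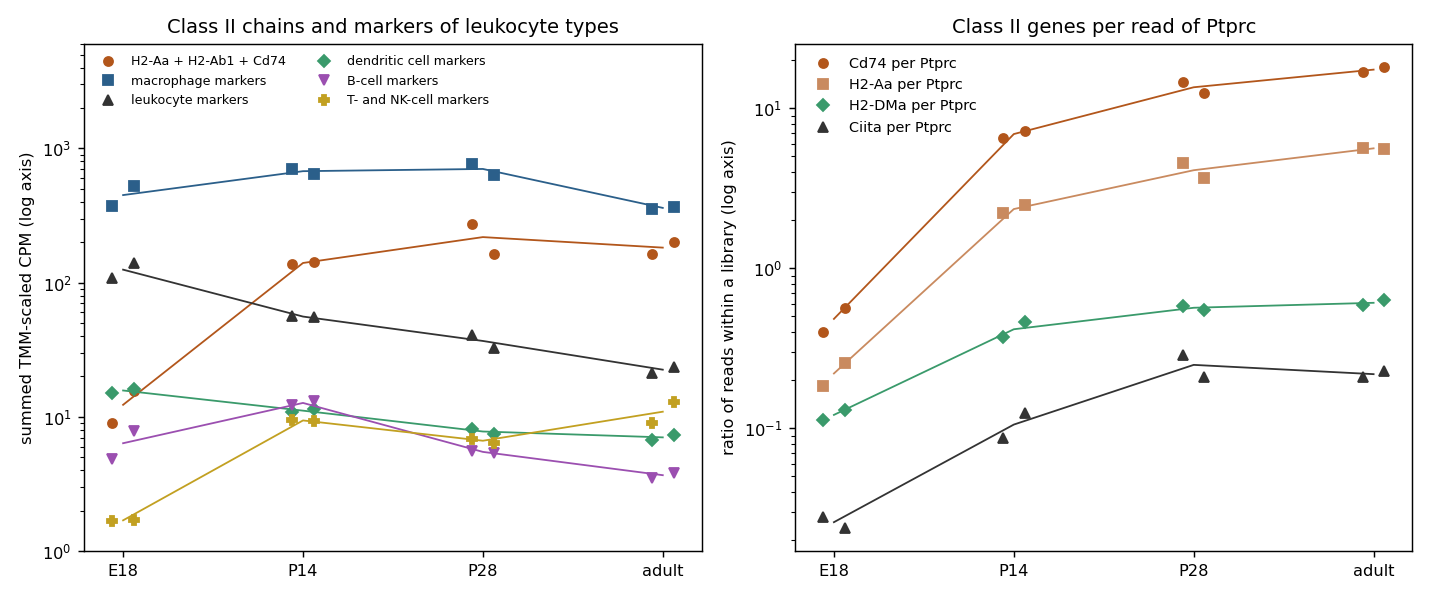
Left, summed TMM-scaled CPM (y, log axis) of 3 class II genes and of marker lists of leukocyte types by stage (x), with points for single samples and lines through stage means. Right, reads of 4 class II genes per read of Ptprc in the same library (y, log axis), which rise from E18 to adult for each gene.

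The class II genes rose while general markers of leukocytes declined. The sum of H2-Aa, H2-Ab1 and Cd74 was 9.04 and 15.5 CPM in E18 livers, 138.2 and 141.7 in P14 livers, 271.9 and 164.5 in P28 livers and 163.6 and 200.7 in adult livers. The 4 leukocyte markers (Ptprc, Cd53, Laptm5 and Coro1a) summed to 108.6 and 141.0 CPM in E18 livers, 56.2 and 55.4 in P14 livers, 41.0 and 32.4 in P28 livers and 21.2 and 23.7 in adult livers. These 4 are not specific to antigen-presenting cells. The 5 neutrophil markers summed to 667.5 and 754.5 CPM in E18 livers and 100.6 and 106.7 in P14 livers. They summed to 2.35 and 1.46 in P28 livers and 0.464 and 1.49 in adult livers. The part of neutrophils in the fall of the leukocyte markers was not tested. The 9 dendritic cell markers summed to 15.1 and 16.2 CPM at E18 and to 6.70 and 7.34 in adults. Zbtb46 and Flt3 made up most of the E18 sum. Zbtb46 averaged 9.85 CPM at E18 and 2.59 in adults, and Flt3 averaged 2.55 and 0.285. Of the 9 markers, Xcr1, Cd209a and Ccr7 rose over 3-fold while Flt3 and Zbtb46 fell. The 9 genes were thus read at every stage and did not share a direction. Whether their reads came from dendritic cells alone was not tested.

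The 10 macrophage markers summed to 371.7 and 525.9 CPM in E18 livers, 707.1 and 645.6 in P14 livers, 769.3 and 636.0 in P28 livers and 356.2 and 364.2 in adult livers. Clec4f and Vsig4, markers of Kupffer cells, rose over 3-fold from E18 to adult, and Marco and Emr1 fell. At the FDR limit 2 of the 10 markers rose and 7 fell, against 39.5% and 43.8% of all genes. Their median log2 fold change was -0.76, against -0.11 for all genes. The 7 B-cell markers were highest at P14, at 12.2 and 13.2 CPM, and lowest in adults, at 3.52 and 3.81. The 7 markers of T and NK cells, which can make interferon-gamma, summed to 1.67 and 1.71 CPM in E18 livers, 9.42 and 9.34 in P14 livers, 6.83 and 6.42 in P28 livers and 8.99 and 12.8 in adult livers. Cd4, which macrophages can also express, made up most of the adult sum, with 7.20 and 10.5 CPM. The T-cell receptor subunit Cd3e had 1.17 and 1.25 CPM at P14 and 0.258 and 0.542 in adults. The part of any of these cell types in the rise of the class II genes was not tested.

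Ratios within a library do not depend on scaling. H2-Aa amounted to 0.184 and 0.256 reads per read of Ptprc, the pan-leukocyte gene, at E18, 2.20 and 2.49 in P14 livers, 4.53 and 3.67 in P28 livers and 5.68 and 5.56 in adult livers. Cd74 per Ptprc went from 0.397 and 0.568 at E18 to 16.8 and 18.1 in adults, and H2-DMa per Ptprc from 0.112 and 0.130 to 0.585 and 0.631. Ptprc counts leukocytes of every type, so these are not values per antigen-presenting cell. Per read of the macrophage markers Csf1r and Clec4f the values differed. H2-Aa per Csf1r was 0.0437 and 0.0577 at E18, 0.433 and 0.485 in P14 livers, 0.676 and 0.503 in P28 livers and 1.06 and 1.12 in adult livers. Against Clec4f, which itself rose over 3-fold, H2-Aa stood at 0.129 and 0.152 reads per read at E18, 0.163 and 0.192 in P14 livers, 0.209 and 0.148 in P28 livers and 0.272 and 0.302 in adult livers. The groups at E18 and adult do not overlap for any of these ratios, but with 2 samples a group the smallest two-sided p of an exact permutation test is 0.33. B2m went from 0.548% and 0.693% of the reads of Alb, the main hepatocyte transcript, at E18 to 0.783% and 0.791% in P14 livers, 1.94% and 2.08% in P28 livers and 4.02% and 5.14% in adult livers. Alb itself went from 163500 and 163600 CPM in P14 livers to 65950 and 49660 in adult livers.

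Genes on no list were ranked by the likeness of their profile to the class II and class I genes over the 8 samples, as a description with no test. Among 6393 candidates, the mean profile of H2-Aa, H2-Ab1, H2-Eb1 and Cd74 was closest to Mir5107 (Pearson r = 0.998), which lies inside Cd74 on the same strand, so their reads cannot be told apart. Next came D17H6S53E (0.996), Nlrx1 (0.995), Zfp768 (0.994) and Parp9 (0.994). The profile of H2-K1, H2-D1 and B2m was closest to Pyroxd2, 0610009B22Rik, Sec14l2, Nags and Nit2, each at 0.999 or above. The 8 points of each correlation fall into 4 stages and share their libraries.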

How the data were processed

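Poly(A) RNA of whole liver was sequenced as 100-base read pairs. RNA was isolated with Trizol per the labels, and with a column kit per the methods of the study. The authors deposited, per sample and gene, a read count and an RPKM value (reads per kilobase of transcript, scaled to the mapped reads of the library). The labels name build mm9, and the aligner and counter are not given in the sources used here. No row without a gene name entered a fit.

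Counts were fitted in edgeR 4.0.16 (R 4.3.3) by quasi-likelihood with TMM scaling over all 8 samples, after filterByExpr left 17081 of 22059 genes, with Benjamini-Hochberg adjustment per comparison. Calls used an FDR below 0.1 and a change over 3-fold, after the study's limits. Deposited RPKM values served for ratios between genes. Samples were grouped by the stage in their labels. The 4 comparisons were E18 to P14, P14 to P28, P28 to adult and E18 to adult. The fits were tested on simulated data. Ratios and markers carry no test. Counts of the 2 samples of each stage differed beyond counting noise, so no library was taken to be deposited a second time. That does not show that they came from separate animals.

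The 10 genes, the pathway and marker lists and the motifs were chosen with earlier results of these data known. All 10 are described in each comparison. From each other list, the text names genes among the 3 largest changes from E18 to adult over 3-fold, and others where 5 or fewer were counted. H2-Oa, H2-Q10, Isg15, Irgm2, Igtp, Tgtp1, Tgtp2, Psmb6, Psmb7, Psmb10, Cd83, Cd4 and Cd3e were chosen after their values were seen. Likeness used log2(CPM + 1) of genes with a mean of at least 1 CPM and an SD of at least 0.5. Trac, of the T-cell markers, was not analysed here, and 7 remained. Alternatives covered the low-count filter, scaling, DESeq2 1.42.0, limma 3.58.1 on log2(RPKM + 0.1) and log2(RPKM + 1), a replicate block, the 2 stages alone, each sample left out, FDR 0.05 and 2-fold. Promoter windows are from RefSeq (GRCm38.p6).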

Additional observations from a re-analysis of the deposited data

How the results depend on the processing

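None of the 10 genes fell over 3-fold in any comparison under the 19 alternatives. The number that rose over 3-fold stayed between 6 and 10 from E18 to P14 and from E18 to adult, and at 0 in the later intervals. The value of 6 came from library size alone and from limma on RPKM. Under library size alone, B2m (1.57), H2-Eb1 (1.45), Ciita (0.97) and H2-DMa (0.71) were under 3-fold from E18 to P14. Tap1 (1.53), Ciita (1.11), H2-Eb1 (0.89) and H2-DMa (0.34) were under it from E18 to adult on the log2 scale. At the FDR limit, H2-Eb1 and H2-DMa from E18 to adult lost their calls under library size alone and under limma, and Ciita against E18 did so under limma with 1 added to RPKM.

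The directions that turned did so without P28 replicate 1. From P28 to adult, log2 fold changes over the fits without 1 sample ran from -0.55 to 0.21 for H2-Aa, from -0.53 to 0.27 for H2-Ab1 and from -0.61 to 0.09 for Cd74, and from P14 to P28 they ran from -0.14 to 0.40 for H2-DMa. The upper ends of the first 3 and the lower end of H2-DMa came without P28 replicate 1 and did not pass the test. Replicate numbers did not pair the samples, since deviations of same-numbered samples correlated between -0.386 and 0.156 over 6 pairs of stages. With the replicate block, member counts kept their main values of 9, 0, 0 and 9, and H2-Ab1 from P14 to P28 (edgeR adjusted p = 0.11) and Ciita from P28 to adult (0.13) lost the FDR limit. Ciita from P28 to adult lost it under 12 alternatives in all. Counts over the other lists moved by over 1.5 times in 68 of 836 cases, most under limma and library size alone. H2-Eb1 rests on 11 to 53 reads a library. Alternatives for the interferon-induced genes after P14 were added after seeing the data.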
